A study of Mus musculus with 18 samples.

Results

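The epidermal growth factor (EGF) family was followed as 9 genes of 19518 in the mouse kidney. They are the ligand genes Egf, Tgfa, Hbegf and Areg, the receptor genes Egfr, Erbb2, Erbb3 and Erbb4, and Grb7, which encodes an adaptor protein. The genes were chosen by name for their place in the family, and the choice was made with results of these data known: differences of Egf and Grb7 between groups of these libraries had been seen. Where such a difference, or another of the same gene that shares its libraries, is given below or enters a count, it is a description. A p-value beside it is no test of it. All 9 were in the table, and 7 passed the filter for testing, a signal of at least 1 in 3 or more of 18 libraries. Tgfa and Areg did not pass it. Erbb4 passed with a signal of at least 1 in 5 libraries.

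The study sequenced kidney RNA of ICR mice, which are outbred, at 10 weeks of age, with 3 libraries in each of 6 groups. The control group is labelled control, with no treatment named. The AOS group received AOS, a name used here as labelled, at 10 mg/kg. The other 4 groups ate a high fat diet (HFD): alone, with AOS at 10 mg/kg (HFD+AOS), with a faecal microbiota transplant (FMT, which brings in the gut microbes of another animal) that carries the label AOS 10 mg/kg (HFD+AOS-FMT), or with a control transplant (HFD+control-FMT). The study's title asks whether the AOS transplant counters effects of the diet on the kidney. Nothing in the labels states that each library is a separate animal, so p-values measure only the spread among these samples, and that spread may be technical. Read numbers are unknown, and all values are normalized signals for a gene.

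EGF and its relatives are made as membrane-bound precursors, and the shed growth factor binds ErbB receptor tyrosine kinases on the cell surface. Ligand binding pairs the receptors, which then recruit adaptors and switch on the Ras-MAPK and PI3K chains; ErbB2 binds no known ligand and ErbB3 has little kinase activity, so both work mainly as partners. In the kidney, EGF is made by the thick ascending limb and the distal convoluted tubule, reaches the urine, and promotes magnesium uptake through the channel TRPM6.

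One library stood apart. Control replicate 3 had 2.48% of its signal in Kap, an androgen-responsive gene of the proximal tubule, against 17.2% to 22.9% in the other 17. Its summed signal of 8 adrenal gland markers was 922, against at most 2.31 elsewhere, and that of 8 tubule injury markers was 2986 against 343 to 777. Transcripts of sperm chromatin proteins (Prm1, Prm2, Tnp1 and Tnp2) summed to 24.8 to 37.1 in the 3 control libraries and HFD replicates 1 and 2, and to at most 0.30 in the other 13. The kidney label was met by its markers: none of 8 proximal tubule, 6 thick ascending limb, 6 distal convoluted tubule or 9 collecting duct markers was at 0 in any library. Values without control replicate 3, and with a term in the model for the 5 libraries with sperm chromatin transcripts, are given where they change a call or the direction of a named difference or move it by over 1.5 times. No other group than HFD holds libraries of both kinds, so the term is set only by HFD replicate 3 against HFD replicates 1 and 2. Against groups without these transcripts, HFD then stands as replicate 3 alone, and the controls are shifted by the same contrast. Where the term changes a difference, the change hangs on that 1 library, and the transcripts cannot be told apart from the groups.

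Signals of different genes are compared here per length of transcript, since the table's values behaved as length-normalized. Egf was by far the most abundant member, with a mean signal of 223 over the 18 libraries, higher than the means of 97.8% of genes. Grb7 followed at 54.2. Hbegf at 12.7, Egfr at 12.05, Erbb2 at 9.52 and Erbb3 at 8.55 were of similar level. Erbb4 averaged 0.935, Tgfa 0.649 and Areg 0.121. Egf made up 90.8% to 96.7% of the summed signal of the 4 ligands in a library, and Egfr 32.6% to 48.3% of that of the 4 receptors. The steadiest member was Egfr, with a coefficient of variation of 7.36% over the 18 libraries, against 20.8% for Egf and 11.6% for Grb7.

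In the GENCODE M21 annotation of GRCm38 (mm10), Egf lies on chromosome 3 from 129677565 to 129755316 on the minus strand, and its longest transcript has 24 exons. Erbb2 and Grb7 are neighbours on the plus strand of chromosome 11, at 98412470 to 98437716 and 98446394 to 98455373, with 8678 bases between them. Egfr is on the same chromosome at 16752203 to 16918158, Erbb3 on chromosome 10 at 128567523 to 128589652, Erbb4 on chromosome 1 at 68032186 to 69108059, Tgfa on chromosome 6 at 86195223 to 86275719 and Areg on chromosome 5 at 91139599 to 91148432. Antisense genes overlap Egf and Egfr, and the end of Mien1 overlaps that of Erbb2. Whether the counting used strand is not given in the sources used here, so reads of such partners cannot be told apart.

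The promoters of Egf, the member with the highest signal, and Erbb2, the receptor whose HFD libraries lay below those of every other group, are shown because the report turns on these genes. Each runs 5′ to 3′ from 250 bases before to 50 after the RefSeq start (GRCm38.p6), Egf at chr3:129755273-129755572 on the minus strand and Erbb2 at chr11:98412234-98412533 on the plus strand. Capitals mark the CCAAT motif.
Egf: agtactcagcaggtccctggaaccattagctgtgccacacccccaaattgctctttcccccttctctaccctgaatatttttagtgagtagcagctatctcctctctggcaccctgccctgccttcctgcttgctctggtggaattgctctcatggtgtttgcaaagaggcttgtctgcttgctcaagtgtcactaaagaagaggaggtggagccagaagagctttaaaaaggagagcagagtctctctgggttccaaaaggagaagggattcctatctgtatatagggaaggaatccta
Erbb2: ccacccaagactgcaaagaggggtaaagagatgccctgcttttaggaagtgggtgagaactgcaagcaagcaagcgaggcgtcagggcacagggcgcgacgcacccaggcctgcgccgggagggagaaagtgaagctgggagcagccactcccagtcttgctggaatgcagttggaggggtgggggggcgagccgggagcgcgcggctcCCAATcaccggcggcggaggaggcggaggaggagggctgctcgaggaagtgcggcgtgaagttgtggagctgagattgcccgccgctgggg
Both strands were searched for the E-box CACGTG, the AP-1 motif TGANTCA, the TATA box TATAAA, the motif CCAAT and the GC box GGGCGG. The Egf window shown held none of them and had 49.0% G and C. A second RefSeq start of Egf, with its window at chr3:129725037-129725336 on the minus strand, is not shown; it held none of them either and had 52.3% G and C. The Erbb2 window held 1 CCAAT and had 66.0% G and C. Of 32851 promoter windows of this length, 37.4% held CCAAT, 35.7% GGGCGG, 13.6% TATAAA, 7.81% TGANTCA and 7.15% CACGTG, and the median G and C content was 52.7%. A match is a match of letters and was not tested for binding.

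Egf, the precursor gene of the urinary growth factor, was highest in control and HFD+AOS-FMT kidneys. Its signal was 251, 274 and 325 in the control libraries, and 141, 189 and 203 in the HFD libraries. The HFD+AOS-FMT libraries had 236, 296 and 276, and the HFD+control-FMT libraries 197, 202 and 172. All 3 HFD libraries and all 3 HFD+control-FMT libraries were thus below every control and every HFD+AOS-FMT library. AOS alone gave 220.1, 191 and 185, also below every control. HFD+AOS gave 214, 218 and 230.1, above every HFD library and below every control.

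The group means of Egf ran from 284 ± 37.6 in controls (SD, n = 3 here and below) through 269.5 ± 30.4 in HFD+AOS-FMT, 221 ± 8.19 in HFD+AOS, 199 ± 18.8 in AOS and 191 ± 15.9 in HFD+control-FMT to 177 ± 32.7 in HFD. In that order, the ranges of all neighbours overlapped except those of HFD+AOS-FMT and HFD+AOS. The HFD mean was 0.626 of the control mean. The HFD+AOS-FMT mean was 1.52 times the HFD mean and 1.41 times the HFD+control-FMT mean. These 3 differences were known when Egf was chosen. In this bulk RNA, fewer cells of a type and less RNA per cell cannot be told apart.

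**Figure D1:**
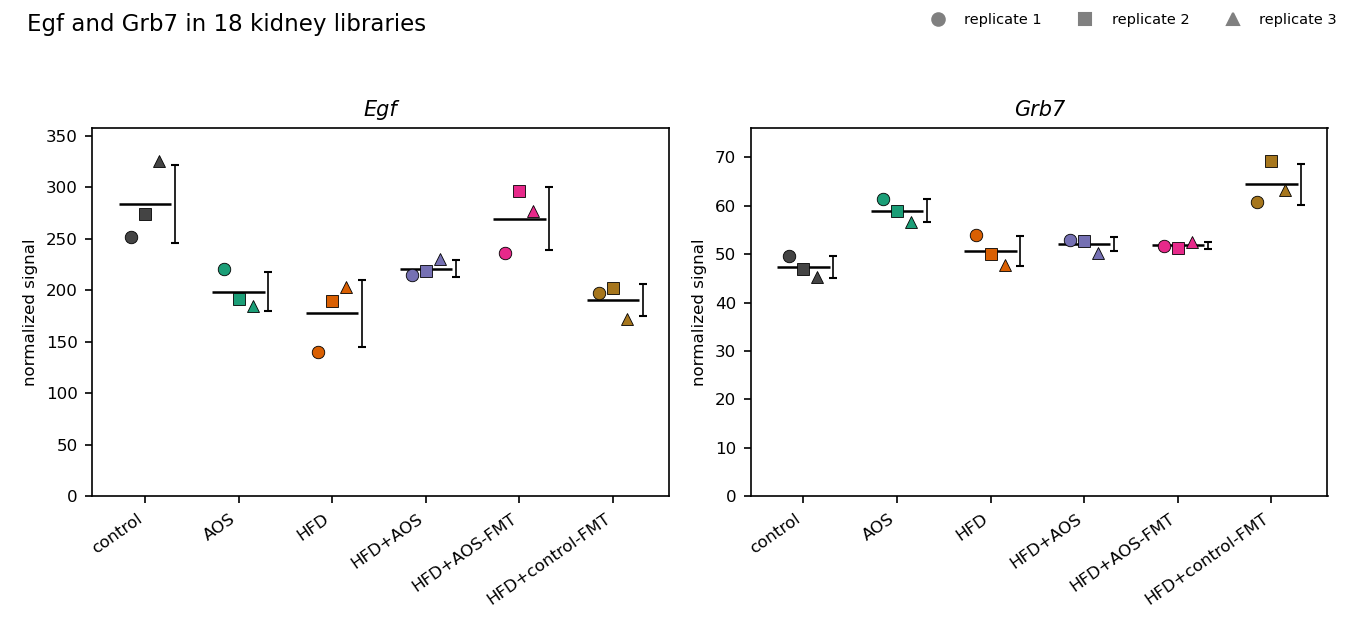
Normalized signal of Egf (left) and Grb7 (right) on the vertical axes, by group on the horizontal axes; symbols are the 3 libraries of a group, lines the means and bars the SD. Egf in HFD and HFD+control-FMT lies below every control and HFD+AOS-FMT library, and Grb7 is highest in HFD+control-FMT and AOS.

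Hbegf encodes heparin-binding EGF-like growth factor, a ligand of EGFR and ErbB4. Its signal was 11.4, 12.9 and 8.25 in controls, 12.1, 14.96 and 16.9 in HFD, and 7.37, 7.98 and 12.02 in AOS. HFD+AOS had 9.27, 11.3 and 12.9, HFD+AOS-FMT 11.7, 16.9 and 15.3, and HFD+control-FMT 15.9, 20.0 and 11.2. The AOS group was lowest (9.12 ± 2.53) and HFD+control-FMT highest (15.7 ± 4.37). Each of the 8 pairs of groups compared overlapped. In limma, HFD was 0.41 over control on the log2(value + 1) scale (SE 0.22, adjusted p = 0.328), which was 0.24 when control replicate 3 was left out. AOS against control was -0.24, and -0.40 with that library left out. With the term for the 5 libraries with sperm chromatin transcripts it was -0.54. No Hbegf difference passed. Hbegf ranged from 2.54% of the Egf signal, in control replicate 3, to 9.88% in HFD+control-FMT replicate 2. It was 7.91% to 8.60% in HFD and 3.35% to 6.51% in AOS.

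Tgfa, the gene of transforming growth factor alpha, an EGFR ligand, had signals of 0.66, 0.51 and 1.89 in controls. The highest was control replicate 3, and no other library reached 1. HFD+AOS had the lowest signals, 0.21, 0.33 and 0.45, followed by HFD with 0.36, 0.57 and 0.60. Areg encodes amphiregulin, an EGFR ligand associated with tissue repair. It was listed at 0 in 9 libraries, among them all 3 of AOS. Its values lay near whole multiples of a step of 0.067, with a largest gap of 0.011. That step was chosen to fit these same values best, so it is a description and no count of reads. Control replicate 3 (0.88) was nearest to 13 such steps, and no other library was nearest to more than 5. With the filter lifted, neither Tgfa nor Areg passed in any of the 8 comparisons, with Tgfa in HFD against control the nearest by p (log2 difference -0.36, limma adjusted p = 0.336). Control replicate 3 (1.89) enters that difference, and control replicates 1 and 2 (0.66 and 0.51) overlapped the HFD libraries (0.36 to 0.60). The difference without control replicate 3 is not given.

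**Figure D2:**
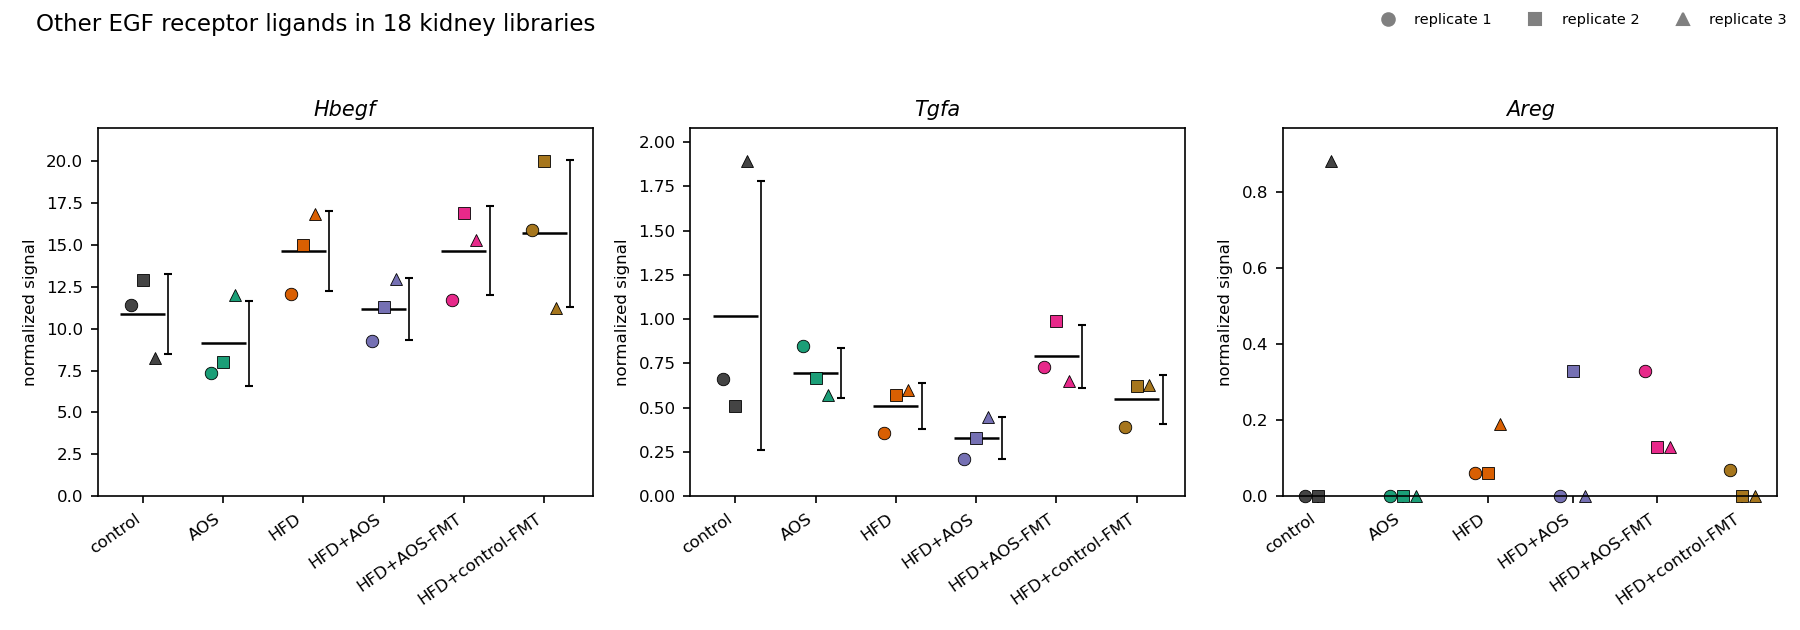
Normalized signal of Hbegf, Tgfa and Areg on the vertical axes, which differ in scale, by group; symbols are libraries, lines means and bars SD, with no mean or bar for Areg because 9 libraries are at 0. Control replicate 3 is the highest library for Tgfa (1.89) and Areg (0.88).

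Egfr, the EGF receptor itself, varied little. Its signal was 11.51, 12.7 and 13.2 in controls and 10.7, 9.97 and 12.3 in HFD, the lowest group at 10.97 ± 1.18. The other 4 groups had means from 11.9 ± 0.26 in HFD+AOS-FMT to 12.7 ± 1.12 in HFD+control-FMT. All 8 pairs of groups compared overlapped, and no difference passed the test. HFD minus control was -0.17 (SE 0.08, limma adjusted p = 0.283).

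Erbb2, the shared partner receptor, was low in all 3 HFD libraries, at 6.87, 7.34 and 6.94. Every other library was higher. Controls had 7.44, 10.2 and 14.4, the widest spread of any group, and AOS 10.3, 10.4 and 10.3. HFD+AOS had 11.8, 9.95 and 11.7, HFD+AOS-FMT 8.19, 10.0 and 9.19, and HFD+control-FMT 8.14, 9.87 and 8.42. The HFD mean of 7.05 ± 0.254 was the lowest, and the HFD+AOS mean of 11.2 ± 1.05 the highest. The highest control value was that of replicate 3.

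Erbb3, the neuregulin receptor that signals through its partners, was highest in HFD+AOS, at 12.5, 12.2 and 10.4. HFD had 6.26, 8.18 and 5.47, and AOS 8.95, 7.99 and 8.42. Controls had 5.90, 6.02 and 10.45, the last again in replicate 3, HFD+AOS-FMT 8.10, 9.32 and 7.98, and HFD+control-FMT 7.62, 8.37 and 9.78. Control replicate 3 apart, every HFD+AOS library was above every library of the other groups. Erbb4, a receptor for neuregulins and Hbegf, was near the filter, with a mean of 0.687 ± 0.241 in HFD and 1.31 ± 0.599 in HFD+AOS-FMT as the extremes, and HFD+AOS-FMT replicate 2 was the highest library at 1.98. The HFD group had the lowest mean of all 4 receptors.

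**Figure D3:**
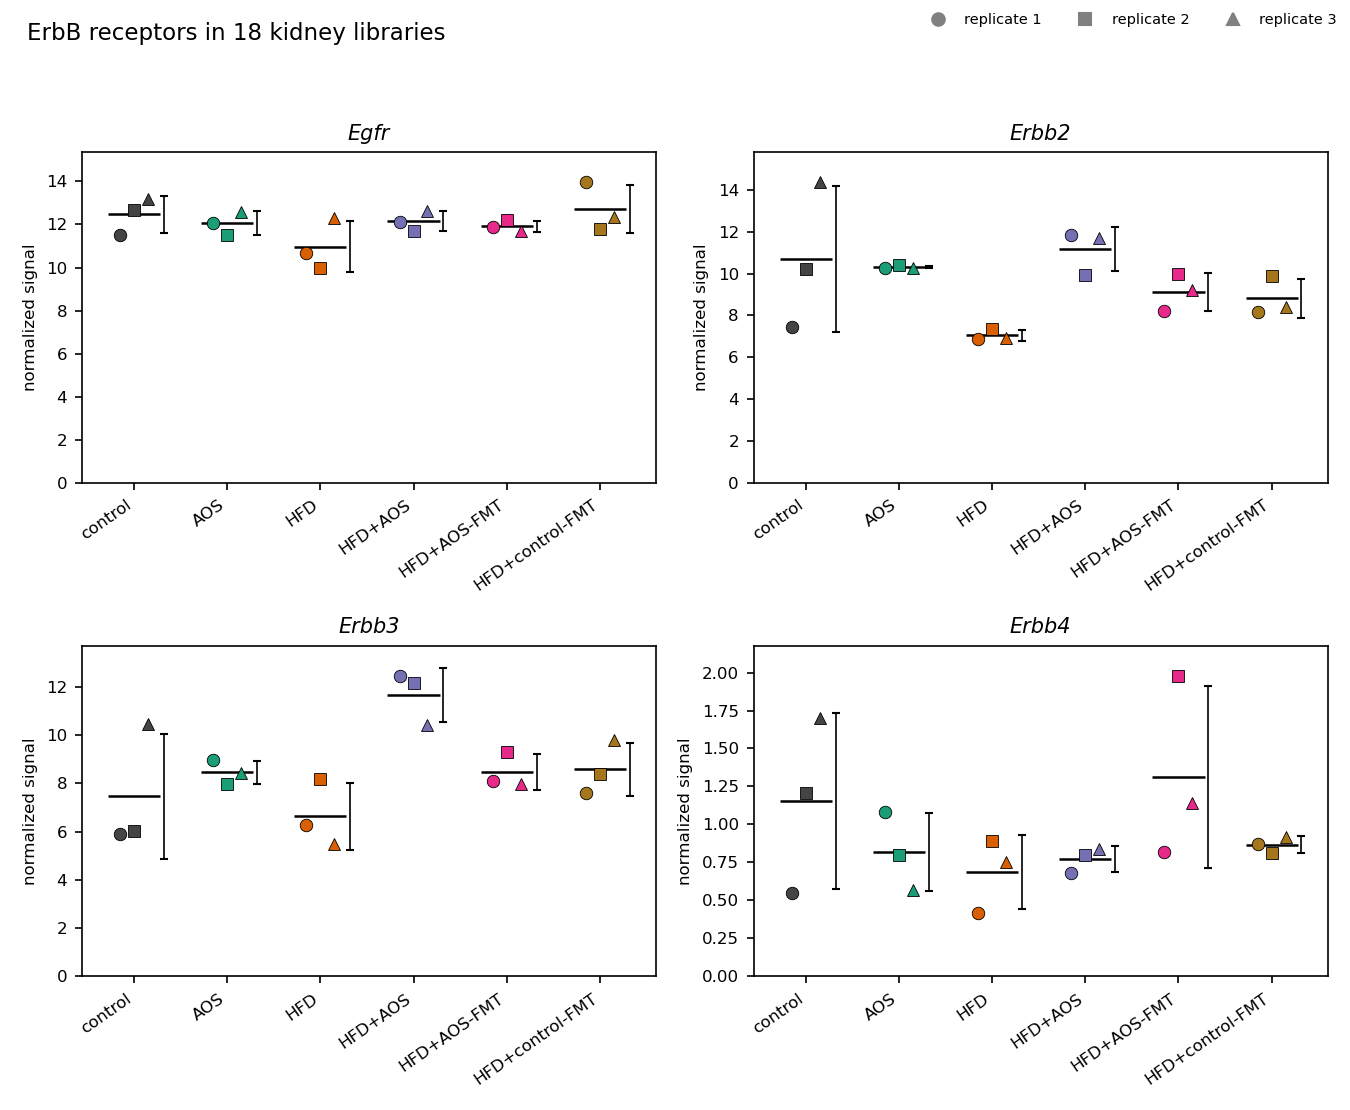
Normalized signal of Egfr, Erbb2, Erbb3 and Erbb4 on the vertical axes, which differ in scale, by group; symbols are libraries, lines means and bars SD. The 3 HFD libraries are the lowest of Erbb2 (6.87 to 7.34), and HFD+AOS is the highest group of Erbb3 (mean 11.7).

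Grb7, an SH2-domain adaptor that binds activated ErbB receptors, was high in HFD+control-FMT and AOS kidneys. HFD+control-FMT had 60.8, 69.15 and 63.3, and AOS 61.45, 59.0 and 56.6. The other 12 libraries lay between 45.25 and 53.9, below all 6 of these. HFD had 53.9, 50.1 and 47.9, HFD+AOS 52.9, 52.8 and 50.3, HFD+AOS-FMT 51.7, 51.2 and 52.5, and controls 49.7, 46.9 and 45.25. The HFD+control-FMT mean of 64.4 ± 4.29 was 1.27 times that of HFD (50.6 ± 3.05), and the HFD+AOS-FMT mean of 51.8 ± 0.637 was 0.804 of the HFD+control-FMT mean. Both differences were known when Grb7 was chosen. The ratio of Grb7 to its neighbour Erbb2 ran from 3.15 to 7.85 over the libraries, lowest in control replicate 3.

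In the moderated F test of limma over the 6 groups, Egf (adjusted p = 0.0481) and Grb7 (adjusted p = 0.0157) passed, 2 of the 7 tested members, with 1.02% of all 12031 tested genes passing. They are the members whose differences were known, so neither the count nor the checks that follow are independent support. Those checks show only how far a call depends on a library or setting. With each of the 18 libraries left out in turn, Grb7 passed in 18 of 18 (adjusted p 0.00633 to 0.0410), and Egf in 2 of 18 (0.0247 to 0.106). The term for sperm chromatin transcripts, which hangs on HFD replicate 3, ended both calls (adjusted p = 0.145 for each, with 0.00% of genes passing). The Egf call also ended with a replicate block (0.0720) and without trend or robust estimation (0.0593). Erbb3 (adjusted p = 0.159), Erbb2 (0.198), Hbegf (0.242), Egfr (0.487) and Erbb4 (0.528) did not pass. Without control replicate 3, Erbb2 (0.0247) and Erbb3 (0.00745) passed as well, as did 6.36% of all genes.

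The first comparison asks what the diet did. In HFD against control, 0 of the 7 members passed limma at an adjusted p of 0.05, as did 0.00% of all genes. At an unadjusted p under 0.05 there were 3 members, against 17.4% of all genes. The groups did not overlap for 2 members, Egf and Erbb2, both lower in HFD, against 15.7% of genes that did not overlap. The median log2 difference of the 7 members was -0.17, and that of all genes -0.10. Erbb2 had a difference of -0.49 (SE 0.15, adjusted p = 0.234), which without control replicate 3 was -0.28 (adjusted p = 0.682). Egf had -0.68 (SE 0.13), and -0.58 without that library. The Erbb3 difference changed sign, from -0.12 to 0.12, when control replicate 3 was left out.

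HFD+AOS against HFD asks what AOS did on the diet, and here Erbb2 and Erbb3 had the largest of their 8 differences. The groups did not overlap for 3 members, Egf, Erbb2 and Erbb3, all higher in HFD+AOS, against 28.2% of genes that did not overlap and 16.2% that did so with HFD+AOS higher. Erbb3 was 1.76 times higher, with a log2 difference of 0.74 (SE 0.17, adjusted p = 0.0555). Erbb2 was 1.58 times higher, with 0.59 (SE 0.15, adjusted p = 0.0867). Egf was 1.24 times higher, with 0.33 (SE 0.13, adjusted p = 0.241), and shares the HFD libraries with the differences that chose it; with a term for the 5 libraries with sperm chromatin transcripts it was 0.12. So 0 of 7 members passed, against 0.823% of all genes, and 3 were under an unadjusted p of 0.05, against 15.1%. Without control replicate 3, which is in neither group and enters through the shared estimate of the spread, Erbb3 (adjusted p = 0.00253) and Erbb2 (0.00513) passed, as did 6.84% of all genes. Both also passed under quantile normalization (0.898% of genes) and under scaling to the 75th percentile (1.34%). With the term for sperm chromatin transcripts neither passed, at 0.97 for Erbb3 (adjusted p = 0.172) and 0.61 for Erbb2 (0.415).

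HFD+AOS-FMT against HFD asks what the AOS transplant did on the diet. Again 0 of 7 members passed, against 0.175% of genes, and 3 were under an unadjusted p of 0.05, against 13.3%. Egf and Erbb2, 2 members, did not overlap and were higher after the transplant, against 25.2% of genes that did not overlap. Erbb2 differed by 0.33 (SE 0.15, adjusted p = 0.373) and Erbb4, whose groups overlapped, by 0.44 (SE 0.20, adjusted p = 0.371). The Egf difference was 0.61 (SE 0.13), and 0.40 with a term for the 5 libraries with sperm chromatin transcripts. Of the 6 other members, 0 passed when control replicate 3 was left out. The median of the members was 0.32, and of all genes 0.05.

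HFD+control-FMT against HFD shares the HFD libraries with both of these. All 7 members had positive differences, with a median of 0.20 against 0.01 for all genes, but 0 passed (0.00% of genes), and 2 were under an unadjusted p of 0.05 (4.50% of genes). The 2 members without overlap were Erbb2 and Grb7, against 15.4% of genes. Erbb2 differed by 0.28 (SE 0.15) and Egfr by 0.20 (SE 0.08), each with an adjusted p of 1.00, and Egf by 0.12 (95% interval -0.16 to 0.40), or -0.09 with the term for sperm chromatin transcripts. With that term Egfr differed by 0.04 and Hbegf by -0.13 (0.07 without it), and 5 of the 7 members were positive. The Grb7 difference was 0.34 (SE 0.06).

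The transplants were then compared with each other. In HFD+AOS-FMT against HFD+control-FMT, 0 of 7 members passed, as did 0.00% of genes, and 2 were under an unadjusted p of 0.05, against 7.02%. Egf was higher and Grb7 lower without overlap, 2 members against 18% (2171) of genes. Their differences of 0.50 (SE 0.13) and -0.31 (SE 0.06) had been seen before. Of the 4 receptors, Erbb4 had the largest difference, 0.28 (95% interval -0.15 to 0.71), and Egfr, Erbb2 and Erbb3 lay between -0.08 and 0.05.

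AOS against control asks what AOS did without the diet. The 2 members without overlap were Egf, lower at 0.701 of the control mean, and Grb7, higher at 1.25 times, against 13.2% of genes without overlap. Grb7 differed by 0.31 (SE 0.06, limma adjusted p = 0.104) and Egf by -0.51 (SE 0.13, adjusted p = 0.270). Without control replicate 3 these were 0.28 (adjusted p = 0.194) and -0.40 (adjusted p = 0.393). The Egf difference shares the control libraries with the HFD against control difference that chose Egf, so it is a description. With the term for sperm chromatin transcripts Egf had -0.82, and with no filter on low values Grb7 passed (adjusted p = 0.0221), as did 0.793% of genes. The 4 receptors lay between -0.22 (Erbb4) and 0.20 (Erbb3). Erbb3 was 0.44 (limma adjusted p = 0.306), Erbb2 0.22 and Erbb4 -0.04 when control replicate 3 was left out, and Erbb3 was 0.54 with the term. In all, 0 of 7 members passed against 0.0332% of genes, and 2 were under an unadjusted p of 0.05 against 12.7%, or 3 against 8.71% when control replicate 3 was left out.

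Against the controls, HFD+AOS-FMT kidneys had 0.951 of the Egf signal, a difference of -0.07 (95% interval -0.35 to 0.21, limma adjusted p = 0.812). This difference was 0.03 without control replicate 3 and -0.38 with the term for sperm chromatin transcripts. Grb7, higher at 0.13 (adjusted p = 0.264) and at 0.25 with that term, was the 1 member without overlap, against 16.0% of genes. Here 0 of 7 members passed, against 2.32% of genes, and 0 were under an unadjusted p of 0.05, against 19.0%. When control replicate 3 was left out, 1 was under it, against 20.0% of genes: Erbb3, whose difference went from 0.20 to 0.44 (limma adjusted p = 0.0694), and to 0.54 with the term. Erbb2 went from -0.17 to 0.05 without that library.

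The last comparison, HFD+AOS against AOS, gives the diet under AOS. Erbb3 was 1.38 times higher (0.42, SE 0.17, adjusted p = 0.369) and Grb7 0.882 times as high (-0.18, SE 0.06, adjusted p = 0.290). These 2 members did not overlap, against 24.2% of genes. Egf differed by 0.16 (adjusted p = 0.724). None passed, 0 of 7 against 0.00% of genes, and 2 were under an unadjusted p of 0.05 against 11.1%.

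**Figure D4:**
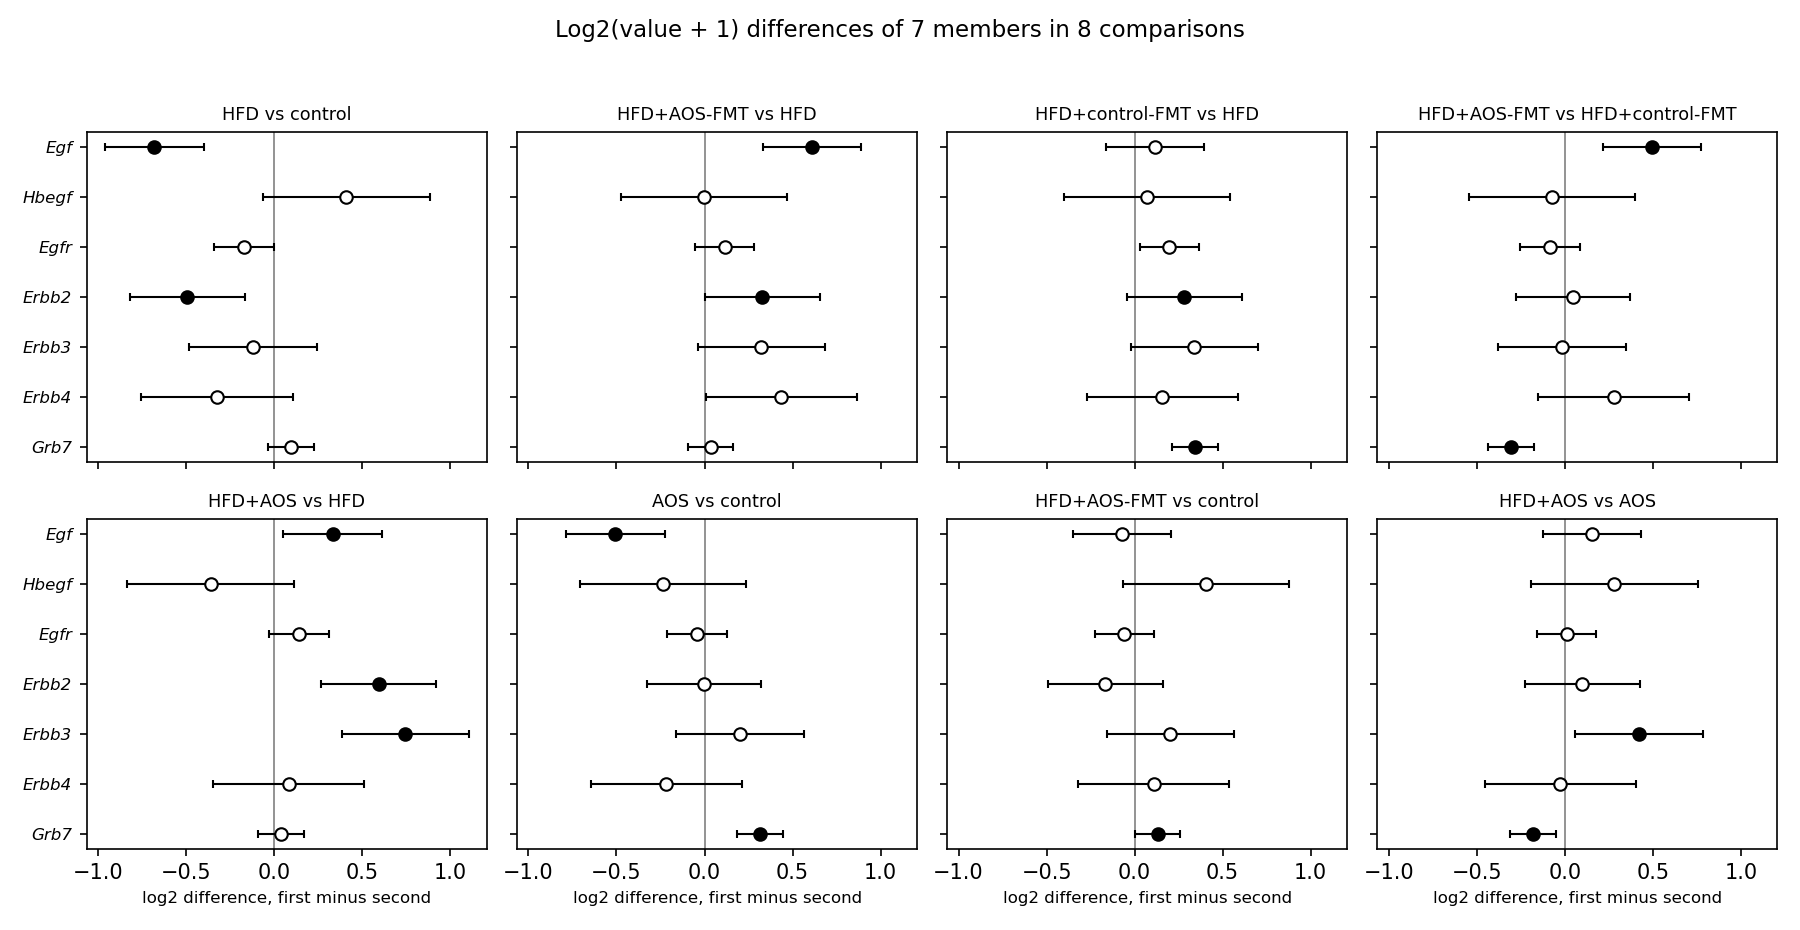
Log2(value + 1) differences (horizontal axes, first group minus second) of the 7 tested members in 8 comparisons, with 95% intervals as bars; filled points are members whose groups did not overlap. Erbb3 (0.74) and Erbb2 (0.59) are highest in HFD+AOS against HFD, and Egf is lowest in HFD against control (-0.68).

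The thick ascending limb, a main source of EGF, was followed with 6 markers. Their summed signal was 1183 to 1679 in controls, 980.4 to 1336 in HFD, 877 to 1116 in HFD+AOS, 1274 to 1937 in HFD+AOS-FMT, 1245 to 1321 in HFD+control-FMT and 1075 to 1564 in AOS, and none of the 6 was at 0. Umod, the gene of the urinary protein uromodulin, averaged 874 ± 171 in controls, 659.6 ± 167 in HFD and 975 ± 227 in HFD+AOS-FMT. The furosemide-sensitive transporter gene Slc12a1 averaged 156 ± 72.5, 80.8 ± 27.1 and 153 ± 65.3 in the same groups. None of the 6 markers passed limma in any of the 8 comparisons. The median difference of the 6 was -0.62 in HFD against control and 0.47 in HFD+AOS-FMT against HFD, against -0.10 and 0.05 for all genes. Of the 6, Cldn10 alone went the other way, at 0.31 and -0.21. Markers of other cells moved in the same comparisons: the medians were -0.66 and 0.45 for 6 podocyte markers, -0.53 and 0.33 for 9 collecting duct markers, -0.50 and -0.05 for 6 distal convoluted tubule markers and 0.11 and -0.02 for 8 proximal tubule markers. Control replicate 3 enters the medians against control. Its summed signal was 105.5 for podocyte, 523 for collecting duct and 2875 for distal convoluted tubule markers. Control replicates 1 and 2 had 45.0 and 44.8, 269 and 251, and 2273 and 1911. Such sums follow their most abundant genes, and Klk1 alone was 2074 of the 2875 in control replicate 3. Of all libraries, control replicate 3 had the most Cldn16, Kcnj1 and Ppp1r1a of the 6 limb markers, and the least Cldn10. Medians without it are not given. The part of these cell types in the Egf differences was not tested.

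Over the 18 libraries, in each of which both genes share the library and its mix of cells, the signal of Egf on the log2 scale had a Pearson r of 0.673 with Umod, 0.723 with Slc12a1 and 0.810 with Cldn16, the gene of a tight junction protein for magnesium. Over 17 without control replicate 3, r was 0.671, 0.645 and 0.781. Kcnj1 and Ppp1r1a, also listed as limb markers, gave 0.715 and 0.721, and 0.610 and 0.623 without that control. With Cldn10, a tight junction gene on the same list, r was -0.704, and -0.594 without that control. Whether the Cldn10 signal came from the limb alone was not tested. Slc12a3, which marks the distal convoluted tubule, gave 0.432, and 0.140 without that control. The other markers listed for that tubule ran from -0.003 (Pvalb) to 0.625 (Wnk4). Without control replicate 3 they ran from -0.284 (Pvalb) to 0.466 (Wnk4). The HFD+AOS group had the lowest Umod mean of the 6 groups, 569 ± 113. Its Umod log2 difference from HFD was -0.20 (limma adjusted p = 0.751). The ratio of Egf to Umod was 0.487 in HFD+AOS replicate 1, the highest of all libraries. HFD+AOS replicates 2 and 3 (0.352 and 0.355) lay below control replicates 1 and 3 (0.363 and 0.362). The other 15 libraries ran from 0.230 to 0.363, and the highest of them were controls.

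**Figure D5:**
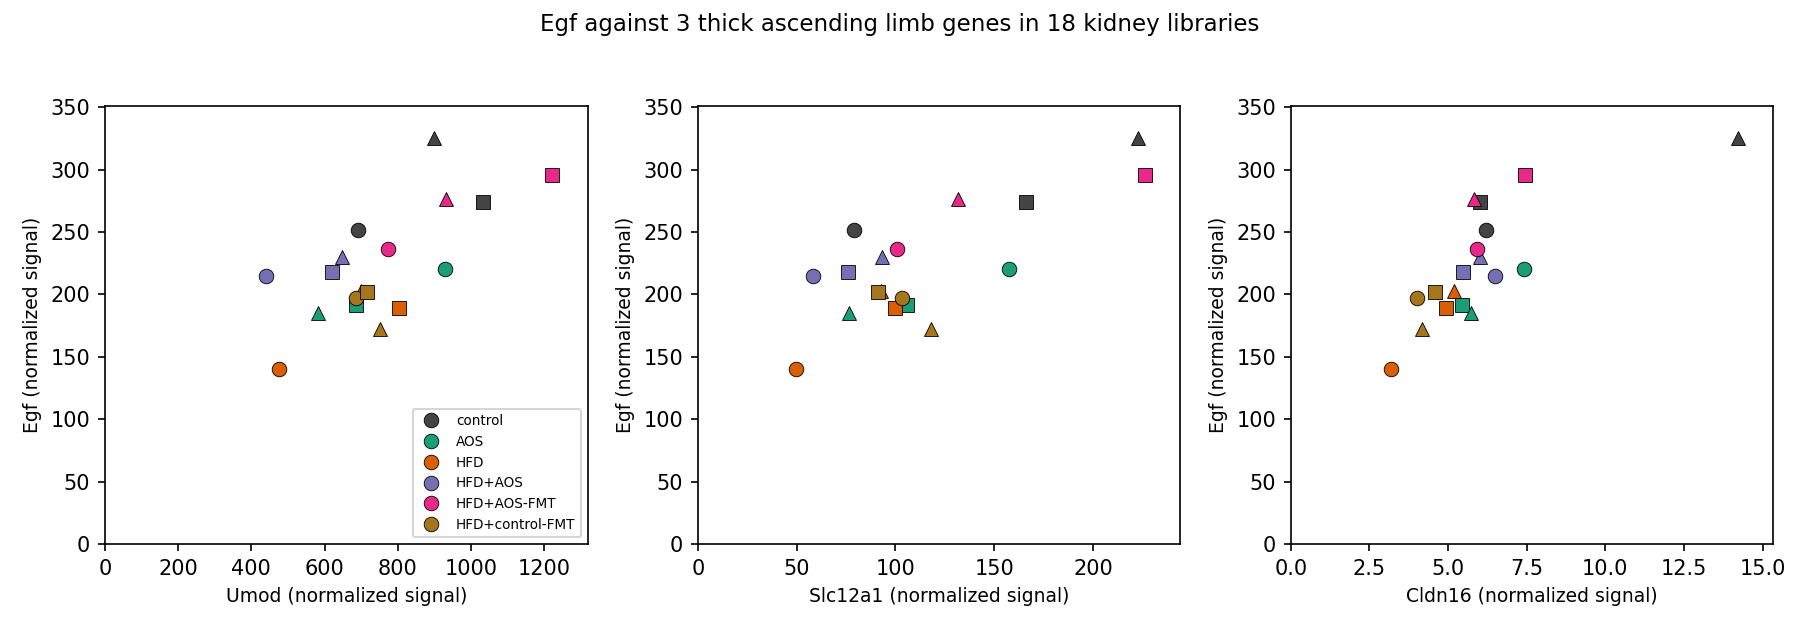
Normalized signal of Egf (vertical axes) against Umod, Slc12a1 and Cldn16 (horizontal axes) in 18 libraries, coloured by group, with circles, squares and triangles for replicates 1, 2 and 3. Egf is higher in libraries with more of the 3 genes (r = 0.673, 0.723 and 0.810), and the HFD+AOS libraries sit at low Umod.

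The rest of the pathway hardly entered the calls. Of 7 further ligand genes, Btc, Nrg1 and Nrg4 could be tested, 3 of 7, and 0 passed in any comparison. Nrg1, the neuregulin 1 gene, had the highest mean, 1.97, and reached 5.02 in a control library. Betacellulin (Btc), an EGFR and ErbB4 ligand, averaged 2.46 ± 0.547 in controls and 1.35 ± 0.279 in HFD. Of 15 genes of ligand release and receptor traffic, 12 were tested. The only call was Epn1, an endocytic adaptor, which fell in HFD+AOS-FMT against control from 151 ± 15.3 to 114 ± 8.91 (log2 difference -0.41, SE 0.09, limma adjusted p = 0.0261), 1 of 12 against 2.32% of all genes. The call ended with any 1 HFD+AOS-FMT library left out (adjusted p 0.0506 to 0.0886), in a fit of the groups alone (0.520), with array weights (0.0613) and with the term for sperm chromatin transcripts (-0.27, adjusted p = 0.773).

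All 17 feedback inhibitors were tested and 0 passed in the 8 comparisons. Errfi1, whose protein binds and blocks the EGFR kinase, was the most abundant, with a mean of 280.3 (140.5 to 359). All 30 adaptor and kinase genes of the Ras-MAPK and PI3K chains were tested, with 0 calls and Map2k2, the MEK2 kinase gene, highest at 66.9. Of 20 genes that ERK signalling is known to induce, 15 were tested with 0 calls, and Ccnd1, the cyclin D1 gene, was highest at 63.6. In HFD+AOS against AOS, 7 of these 15 did not overlap, all higher in HFD+AOS, with a median difference of 0.37, against 12.5% of all genes higher without overlap and a median of -0.00. This count and median were the largest of the 8 comparisons. The median was -0.36 in AOS against control, against -0.09 for all genes. In HFD+AOS against HFD it was 0.21, against 0.01, and 2 of 15 did not overlap, against 28.2% of all genes. In HFD+control-FMT against HFD it was 0.26, against 0.01. In HFD against control, 0 of the 15 did not overlap, against 15.7% of all genes.

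EGF acts on magnesium transport, so 14 genes of magnesium handling were followed, of which 13 were tested and 0 passed. Trpm6, the EGF-responsive channel gene, averaged 4.21 ± 2.62 in controls and 2.47 to 2.88 in the other 5 groups, and 7.23 in control replicate 3 was its highest value. Fxyd2, a sodium pump subunit gene, was the most abundant at 6819. It was 7189 ± 245 in HFD, 6165 ± 181 in HFD+AOS (log2 difference -0.22, limma adjusted p = 0.134) and 6191 ± 425 in HFD+AOS-FMT (-0.22, adjusted p = 0.177). Its 3 HFD libraries were above all of these 6.

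Erbb2 and Grb7 lie in a gene cluster, and 7 of 8 listed neighbours were in the table. Stard3, Pgap3, Mien1 and Ppp1r1b could be tested, and 0 of the 4 passed in any comparison. Mien1, which overlaps the end of Erbb2, had a mean of 158, with 168 ± 7.09 in HFD and 142 ± 20.6 in HFD+AOS, the reverse order of Erbb2. Stard3, a lipid transfer gene, held between 13.0 and 15.5 in its 6 group means, and Pgap3 between 4.91 and 6.35. Ppp1r1b averaged 26.8 ± 12.5 in controls and 11.9 ± 6.89 in HFD+AOS. Ikzf3, Tcap and Pnmt were under the filter, and Pnmt, the adrenaline-making enzyme gene of the adrenal medulla, reached 2.04 in control replicate 3 against at most 0.1 elsewhere.

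Among 5838 genes with a mean signal of at least 10, the 6 most like Egf over the 18 libraries by Pearson r on the log2 scale were Fgfr1 (0.877), Cpd (0.850), Lman1 (0.848), Aqp6 (0.848), Epb41 (0.841) and Bsnd (0.828). With control replicate 3 left out their r lay between 0.776 and 0.840, and after the group means were taken out between 0.602 and 0.776. For Grb7 they were Acbd4 (0.789), Asb9 (0.777), Pigx (0.760), Nipsnap1 (0.759), Ascc1 (0.757) and Hist1h2bc (0.750). With control replicate 3 left out these lay between 0.709 and 0.753. After group means, Asb9 kept 0.720 and Acbd4 0.594, and the other 4 lay between 0.244 and 0.313. These are the top values of many genes in libraries that share their groups, and are given as a description.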

How the data were processed

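Messenger RNA of 18 kidney libraries was sequenced from 1 µg of Trizol-extracted RNA each, per the labels' protocols. Bowtie 0.12.2 and mm10 are the aligner and build in the submitters' processing notes. How reads were counted, annotated and normalized is not given in the sources used here. What the authors deposited is a single table of signal, by gene symbol and library, with 2 decimals and no stated unit. The column sums varied by 3.50% (coefficient of variation), and by 0.815% once multiplied by transcript length, known for 97.3% of genes, so the signal was treated as normalized for length and depth. Of 19545 entries, 26 symbols turned into dates and 1 repeated entry were left out. With no counts, depth is unknown and no counting interval is given.

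Genes with a signal of at least 1 in 3 libraries (12031) were fitted as log2(value + 1) in limma 3.58.1 (R 4.3.3), 6 groups in 1 model, 12 residual degrees of freedom, trend and robust estimation, two-sided tests and Benjamini-Hochberg adjustment over all genes within each comparison at 0.05. Log2 differences understate changes of low genes. An exact permutation test of 3 against 3 cannot go below 0.1 and was not used. The members, lists and tests were chosen with earlier results of these data known. All 9 members are named in every group. Of each pathway list, genes that passed are named, and otherwise the one with the highest mean. Other genes (Btc, Trpm6, markers) were named after their values were seen. Besides Klk1, marker calls in HFD+AOS-FMT against control were Slc27a2 (log2 difference 0.37, limma adjusted p = 0.0416), 1 of 8 proximal tubule markers, and 5 of 7 tested germ cell markers, against 2.32% of genes. In AOS against control the germ cell marker Prm1 passed (adjusted p = 0.0499), against 0.0332% of genes. The fit was also run on simulated data with known changes planted in HFD. In those data each gene had the same spread in all groups and genes varied independently. That run therefore cannot show how the calls here depend on single libraries. Alternatives were pseudocounts of 0.1 and 5, no filter, quantile normalization, scaling to the 75th percentile, no trend or robust estimation, the groups alone, a replicate block, array weights, each library left out, and a term for libraries with sperm chromatin transcripts.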

Additional observations from a re-analysis of the deposited data

Results flagged for a closer look

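The AOS difference of Egf pointed one way without the high fat diet and the other way on it. All 3 AOS libraries (highest 220.1) were below all 3 controls (lowest 251), and all 3 HFD+AOS libraries (lowest 214) were above all 3 HFD libraries (highest 203). The log2 differences were -0.51 and 0.33, and they differ by 0.84. That value also holds the HFD against control difference on which Egf was chosen, so it is given without a test. In the limma fit of this difference over all genes, chosen after the data had been seen, 0 of the 6 other tested members passed (0.00% of genes), and 3 (Erbb2, Erbb3 and Grb7) were under an unadjusted p of 0.05, against 12.4% of genes. Erbb2 had 0.59 (SE 0.22, adjusted p = 0.369), Erbb3 0.54 (SE 0.24, adjusted p = 0.399) and Grb7 -0.27 (SE 0.09, adjusted p = 0.366). With control replicate 3 left out, Egf had 0.74, Erbb2 0.38 and Erbb3 0.30.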

How the results depend on the processing

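In the 8 comparisons 0 members passed, and the count moved under these settings. In HFD against control it was 1 without control replicate 2 (1.81% of genes), and leaving out 1 library at a time gave 0 to 1. In HFD+AOS-FMT against HFD it was 1 with array weights (5.33% of genes), and 0 to 1 with libraries left out, the 1 without control replicate 3 (4.89%). In both comparisons the 1 is Egf, whose difference was known at its choice, and is no test of it. In HFD+AOS against HFD it was 2 (Erbb2 and Erbb3) under quantile normalization (0.898% of genes), 75th percentile scaling (1.34%), the groups alone (3.02%) and array weights (7.82%), and 0 to 2 with libraries left out, the 2 without control replicate 3 (6.84%). In AOS against control it was 1 (Grb7, adjusted p = 0.0221) with no filter (0.793% of genes). The F test count of 2 was 1 without trend or robust estimation (0.856% of genes), 1 with the replicate block (0.582%), 4 with array weights (8.05%), 0 with the term for sperm chromatin transcripts (added after seeing the data), and 1 to 4 with libraries left out, the 4 without control replicate 3 (Egf, Grb7, Erbb2 and Erbb3). The cause of these moves was not tested. The replicate numbers share only a number (deviations of same-numbered libraries correlated from -0.159 to 0.260), and the block changed no other count. Of 1072 recomputed member differences 45 took another sign, all with a size of at most 0.17 as reported. Quantile normalization moved the median of all genes in HFD against control from -0.10 to 0.01, and Egf there to -0.65. The planned germ cell term was not run, since every library passed its threshold.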

Other observations

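Pairs of members were compared across the 18 libraries, in each of which both genes share the library and its mix of cells. Erbb2 and Erbb3 had a Pearson r of 0.675 on the log2 scale, and 0.669 over 17 libraries without control replicate 3. Egf and Erbb4 had 0.757 and 0.685. Egf and Grb7 had -0.531 and -0.428. Egf and Hbegf, ligands of the same receptor, had -0.03 and 0.16. Tgfa and Areg had 0.638, which was 0.03 without control replicate 3.

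Klk1, the kallikrein gene of the connecting segment that was listed among the distal convoluted tubule markers, fell in HFD+AOS-FMT against control, from 1789 ± 279 to 1099 ± 36.2 (SD, n = 3; log2 difference -0.69, SE 0.12, limma adjusted p = 0.0108). It was the 1 of 6 markers of that list with a call, against 2.32% of all genes, and the call ended with the term for sperm chromatin transcripts (-0.88, adjusted p = 0.312) and in a fit of the groups alone (adjusted p = 0.370). The fall was not particular to the AOS transplant. Klk1 differed by -0.63 in HFD against control (SE 0.12, limma adjusted p = 0.137). In HFD+AOS-FMT against HFD the difference was -0.06 (adjusted p = 0.855). Its highest library was control replicate 3, at 2074.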
